A study of Mus musculus with 8 samples.

Results

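The 42 genes described here encode the machinery of autophagy and of the lysosome, from the kinases that start an autophagosome to the enzymes that digest its contents. They were chosen by gene symbol and found by Ensembl identifier among the 56748 rows of the count table, where each had a single row. All 42 passed the filter on low counts. RNA was sequenced from whole mouse liver at 16 weeks of a model labelled MASLD (steatotic liver disease tied to metabolic dysfunction), with a High fat-high fructose diet given for all libraries. The labels give 4 libraries of the genotype miR-93 knockout and 4 of the genotype Wild-type, with tissue, diet and time shared by all 8. The comparison asks which transcripts differ when miR-93, a microRNA that represses messenger RNAs through short matches in their 3′ UTRs, is missing. Strain, sex, age, the cells in which the gene was removed and whether each library came from its own animal are not in the labels, and p-values therefore cover only how these libraries vary, which may be technical.

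In autophagy a cell wraps cytoplasm, organelles or protein aggregates in a double membrane and delivers them to the lysosome. The ULK1 kinase complex and the lipid kinase complex around BECN1 and PIK3C3 start the membrane, ATG9A and ATG2A feed it lipid, and a conjugation system attaches the small ubiquitin-like ATG8 proteins (the LC3 and GABARAP families) to it. Cargo receptors such as SQSTM1 (p62) bind ATG8 and are themselves degraded, and acid hydrolases called cathepsins then digest what arrives. In hepatocytes the pathway turns over mitochondria, protein and lipid droplets, and the transcription factors TFEB and TFE3 are known to drive many of its genes.

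The seed of miR-93-5p, bases 2 to 8, is what pairs with a target, so it is shown first with the microRNAs that carry the same seed (RefSeq, GRCm38.p6, capitals mark the seed).
mmu-miR-93-5p (chr5:138165574-138165596, minus strand): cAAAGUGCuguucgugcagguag
mmu-miR-106b-5p (chr5:138165787-138165807, minus strand): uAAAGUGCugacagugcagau
mmu-miR-17-5p (chr14:115043684-115043706, plus strand): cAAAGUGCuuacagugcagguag
mmu-miR-20a-5p (chr14:115044183-115044205, plus strand): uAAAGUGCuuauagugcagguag
The same seed is carried by miR-106a-5p, miR-20b-5p and miR-6383, which makes 7 mature microRNAs in the table. The miR-106b-5p sequence lies close to that of miR-93-5p on the same strand of chromosome 5. Mir93 (ENSMUSG00000065527) had 0 counts in all 8 libraries, so the gene counts do not check the knockout label.

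A match to this seed (GCACTTT, searched on the transcript strand only) stood in the longest annotated 3′ UTR of 9 of the 42 members, or 21.4%, against 15% (1745) of the 11598 tested genes with an annotated 3′ UTR. With any annotated transcript counted, Pik3c3 and Lamp2 also held a match, which made 11 members, against 16.7% (1935) of those tested genes. All that follows uses the longest 3′ UTR. The sites of Ulk1 and Sqstm1 are shown because these were the members with a match that were called. They changed in opposite directions, Ulk1 lower and Sqstm1 higher in knockout. MicroRNAs with this seed have been reported to target both, which was not tested here. The sites of Atg7, Atg16l1 and Atg14 are shown for contrast. Each line gives bases of the GENCODE M21 transcript (GRCm38) with the match in capitals, and the match position counts from the first base after the stop codon.
Ulk1 (chromosome 5, 3′ UTR bases 486 to 492): ttgtaagtcaccggaGCACTTTatgcatac
Sqstm1 (chromosome 11, 3′ UTR bases 627 to 633): aataaaatggcatatGCACTTTaaccagcc
Atg7 (chromosome 6, 3′ UTR bases 877 to 883): agcctcggtttaagaGCACTTTattattgt
Atg16l1 (chromosome 1, 3′ UTR bases 870 to 876): tgtcacacttactttGCACTTTattttttg
Atg14 (chromosome 14, 3′ UTR bases 1402 to 1408): tcatatcaatcagagGCACTTTtgtcatcg
Of the 9 members with a match, Sqstm1 rose, Ulk1 fell and the others (Rb1cc1, Atg14, Atg2a, Atg9a, Atg7, Atg16l1 and Ctsa) did not pass the test. Their median log2 fold change was -0.17, and that of the 33 members without a match in the longest 3′ UTR, of which 14 rose, was 0.43. The split also follows the step of the pathway. Ulk1, Rb1cc1, Atg14, Atg2a and Atg9a are among the 12 initiation genes, whose median was -0.03, and no ATG8 gene held a match. The same medians were not taken over all genes, and a link between match and level was not tested. A match is a description of the sequence and does not show binding.

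The libraries differed in depth and in mitochondrial share along with genotype, so for every knockout against wild-type difference below these measures and the genotype cannot be told apart. Total counts ran from 9187279 to 10966019 in knockout and from 5085860 to 7451026 in wild type, and transcripts of the mitochondrial genome took 8.08% to 15.03% of the knockout counts and 25.4% to 77.8% of the wild-type counts (two-sided exact permutation p = 0.0286 for each measure, the smallest that 4 against 4 libraries allow). Wild-type replicate 4 held the 77.8% and kept 1131446 counts outside the mitochondrial genome, so each member count there ranged from 4 to 654. It was the lowest wild-type library for 21 members and the highest for 12. Hepatocyte markers were abundant in every library, with a summed level over 8 genes of 38085 to 59010 CPM (counts scaled to a common library size with edgeR's TMM factors as are all levels below). In liver RNA of this kind, fewer cells of a type and less RNA per cell cannot be told apart.

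Of the 42 members, 15 rose in knockout, 1 fell and 26 did not pass an adjusted p of 0.05. Among all 13204 genes tested, 10.4% rose, 10.7% fell and 21.0% were called in either direction. The median log2 fold change (knockout over wild type, as everywhere below) was 0.25 over the members and -0.01 over all genes tested. The 2 genotypes did not overlap for 21 members, with knockout above wild type for 19, against 30.3% of all genes in either direction and 16.3% with knockout above. By step, several ATG8 genes with their processing protease, a cargo receptor and a set of lysosomal hydrolases were higher, the initiating kinase gene was lower, and most other initiation genes did not pass the test. In scaled counts the knockout libraries agreed more closely with each other than the wild-type libraries did. The median coefficient of variation over the 42 members was 8.56% in knockout and 22.1% in wild type. It was 11.4% in wild type without replicate 4. These values include counting error, which is larger at the lower depth of the wild-type libraries, and its part was not separated.

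Among the 12 initiation genes, 1 rose and 1 fell, shares no higher than the 10.4% and 10.7% of all genes tested. Both belong to the same kinase complex. Ulk1 (ENSMUSG00000029512), the kinase that receives the signals of mTORC1 and AMPK, stood at 57.6, 54.6, 59.0 and 51.45 CPM in knockout replicates 1 to 4 and at 99.3, 116.0, 112.4 and 113.6 CPM in wild-type replicates 1 to 4. Every knockout library was lower than every wild-type library, and wild-type replicate 4 lay among the other wild-type libraries. Ulk1 fell by 0.99 ± 0.12 (standard error) on the log2 scale, with an edgeR quasi-likelihood adjusted p of 0.000285, from 110.3 ± 7.51 to 55.7 ± 3.35 CPM (SD, n = 4 per group). Ulk2, its close relative, did not pass the test (log2 fold change 0.00 with a 95% interval of -0.37 to 0.37).

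Atg13 (ENSMUSG00000027244), the adaptor that ties ULK1 to the rest of its complex, moved the opposite way. Its level was 41.5, 44.3, 40.5 and 43.1 CPM in knockout and 22.2, 22.0, 23.4 and 21.4 CPM in wild type. The groups were far apart and each was tight, and the log2 fold change was 0.92 ± 0.11 (adjusted p = 0.000272). Atg101, which stabilizes ATG13, had 0.52 ± 0.18 (adjusted p = 0.0581), and Rb1cc1, the scaffold FIP200, had 0.10 with a 95% interval of -0.23 to 0.43. For Atg101, wild-type replicate 4 (14.1 CPM) lay inside the knockout range of 13.4 to 16.5 CPM. Without that library Atg101 passed (0.63, adjusted p = 0.00268), as did Atg14 (0.69, adjusted p = 0.00057), the subunit that directs the lipid kinase to autophagy, which with all libraries had 0.52 ± 0.20 (adjusted p = 0.0801).

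The remaining initiation genes did not pass with or without wild-type replicate 4. The core lipid kinase genes Becn1 and Pik3c3 had log2 fold changes of -0.30 (95% interval -0.62 to 0.03) and -0.24 (-0.56 to 0.09). The phosphoinositide-binding Wipi1 and Wipi2, the lipid transfer gene Atg2a and the scramblase gene Atg9a lay between -0.22 and 0.26. The depth limits Wipi1, which had 2.25 CPM from 4 counts in wild-type replicate 4 and a 95% interval of -0.72 to 0.58.

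**Figure D1:**
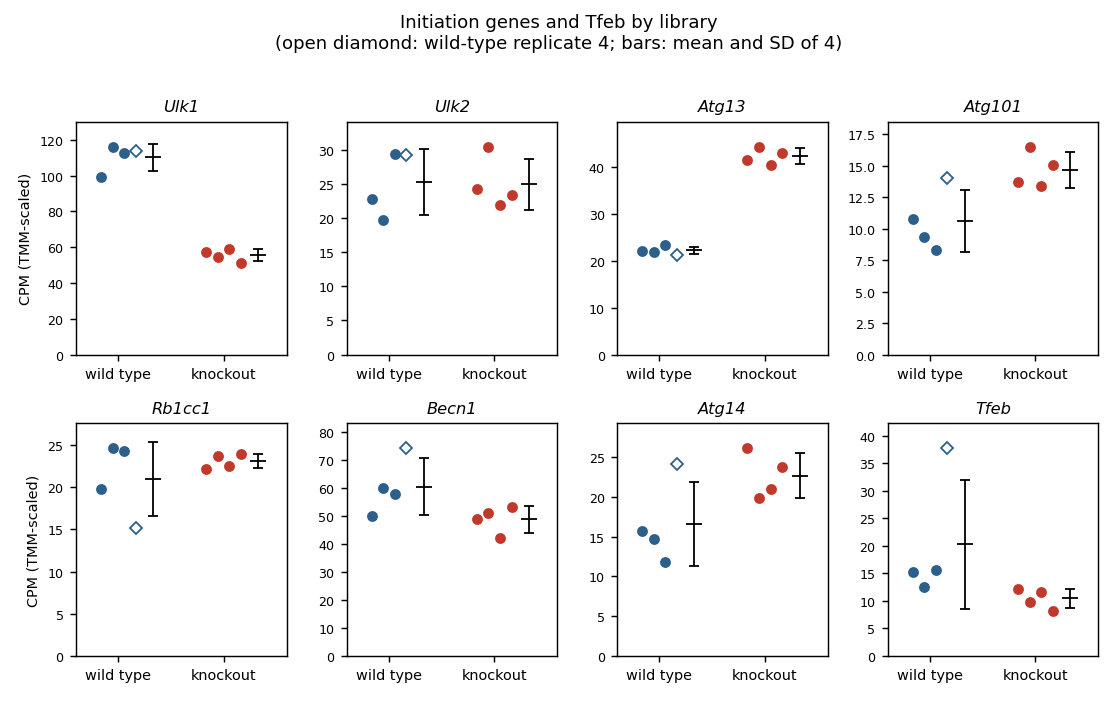
Level of 7 initiation genes and Tfeb in each library (vertical axis, TMM-scaled CPM from 0, with a scale of its own in each panel; blue, wild type; red, knockout; open diamond, wild-type replicate 4; black bars, mean and SD of 4 libraries). Ulk1 is lower in all 4 knockout libraries and Atg13 higher in all 4, while the Ulk2, Rb1cc1 and Becn1 points overlap.

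Among the 11 conjugation genes 6 rose and none fell. With edgeR the count of falls was also 0 at an unadjusted p under 0.05, and it was 0 with DESeq2 and with unweighted limma-voom, but 2 with limma-voom quality weights and 2 without wild-type replicate 4 (Atg7 and Atg16l1 in both). Of the 6 that rose, 4 are ATG8 genes and the others are Atg4b and Atg12. Map1lc3a (ENSMUSG00000027602), which encodes LC3A, had 29.9, 30.9, 30.4 and 32.7 CPM in knockout and 15.9, 17.7, 11.7 and 10.1 CPM in wild type. Map1lc3b (ENSMUSG00000031812), which encodes the LC3B used as the usual autophagosome marker, had 137.1, 154.7, 154.2 and 149.2 CPM in knockout and 87.9, 81.5, 81.5 and 50.05 CPM in wild type. In both genes every knockout library was above every wild-type library, and wild-type replicate 4 was the lowest. The log2 fold changes were 1.11 ± 0.17 (adjusted p = 0.00104) for Map1lc3a and 0.97 ± 0.17 (adjusted p = 0.00271) for Map1lc3b.

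The GABARAP branch of the family, which acts late in autophagosome closure and fusion, showed the same direction. Gabarap (ENSMUSG00000018567) had 216.3, 233.25, 229.9 and 225.8 CPM in knockout and 136.2, 104.0, 124.85 and 68.6 CPM in wild type. Gabarapl1 (ENSMUSG00000030161) had 165.4, 233.5, 183.35 and 219.3 CPM in knockout and 99.2, 84.5, 87.4 and 94.5 CPM in wild type. Neither gene had overlapping groups, and for Gabarapl1 wild-type replicate 4 lay among the other wild-type libraries. They rose by 1.05 ± 0.19 (adjusted p = 0.00314) and 1.13 ± 0.15 (adjusted p = 0.00041). Gabarapl2 was scarcer, with 18.7, 23.5, 19.3 and 24.5 CPM in knockout and 16.4, 8.66, 18.4 and 5.06 CPM in wild type. Its groups did not overlap but the wild-type libraries were widely spread, and it did not pass (0.73 ± 0.28, adjusted p = 0.0853), although it did without wild-type replicate 4 (0.58, adjusted p = 0.0204). Of the 5 ATG8 genes 4 rose, and these 4 kept their calls whichever single library was left out. The family members are related in sequence, and the treatment of reads shared between such genes is unknown here, so values of single members carry that uncertainty.

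The enzymes that handle ATG8 proteins divided. Atg4b, the protease that trims ATG8 precursors and releases them from membranes, rose by 0.56 ± 0.13 (adjusted p = 0.0138), from 11.4 ± 0.328 to 16.8 ± 0.962 CPM (SD, n = 4 per group), and lost its call without knockout replicate 4 (adjusted p = 0.0558). Atg12, the ubiquitin-like protein joined to ATG5, rose by 0.77 ± 0.21 (adjusted p = 0.024), a call that failed on omitting any of knockout replicates 2 to 4, or wild-type replicates 2 and 3, singly (adjusted p 0.0526 to 0.0831). The partners that carry out the conjugation did not pass: Atg3, the E2-like enzyme, had 0.05, Atg5 had 0.22, Atg7, the E1-like enzyme, had -0.20 and Atg16l1, which places the complex on the membrane, had -0.19. Wild-type replicate 4 was the lowest wild-type library in all 4 of them. Without it Atg7 (-0.30, adjusted p = 0.032) and Atg16l1 (-0.32, adjusted p = 0.0351) fell, and Atg3 read -0.14.

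**Figure D2:**
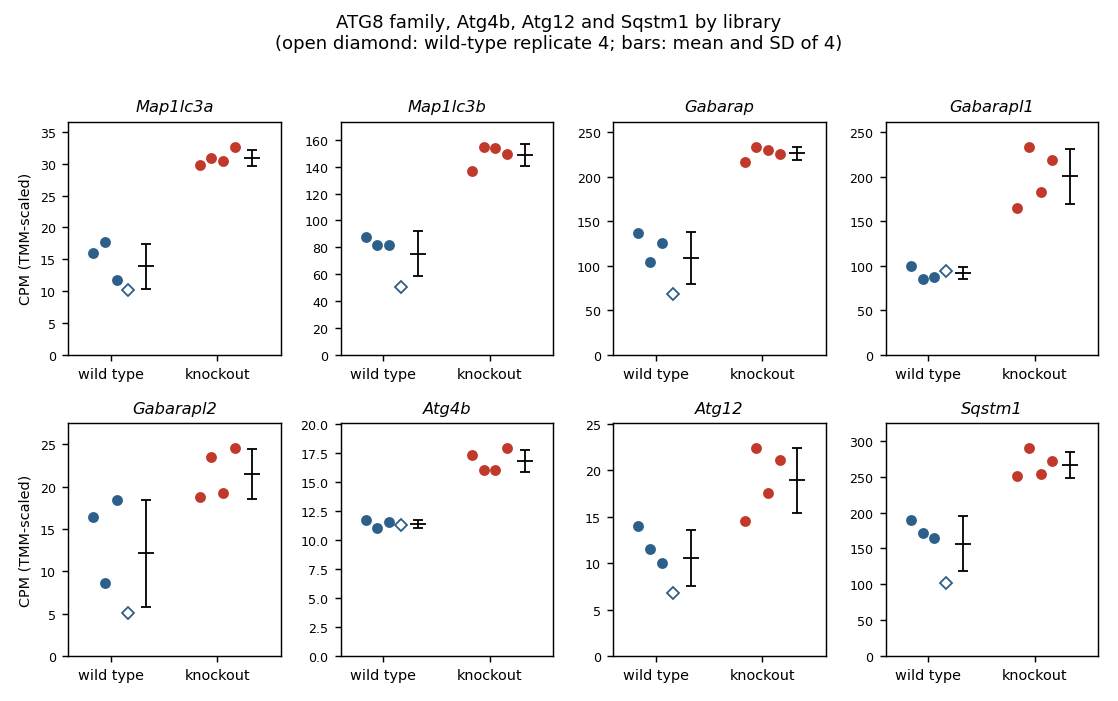
Level of the 5 ATG8 genes, Atg4b, Atg12 and the receptor gene Sqstm1 in each library (vertical axis, TMM-scaled CPM from 0, with a scale of its own in each panel; blue, wild type; red, knockout; open diamond, wild-type replicate 4; black bars, mean and SD of 4 libraries). In all 8 panels the knockout points lie above the wild-type points, with the narrowest gap in Gabarapl2 and Atg12.

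Of the 3 cargo receptor genes 1 rose. Sqstm1 (ENSMUSG00000015837), which encodes p62 and is also a target of the NRF2 stress response, had 251.6, 289.6, 253.7 and 271.9 CPM in knockout and 189.7, 171.4, 164.4 and 101.2 CPM in wild type. The groups did not overlap, and wild-type replicate 4 was the lowest. Sqstm1 rose by 0.76 ± 0.18 (adjusted p = 0.0143), a call that narrowly missed the threshold without knockout replicate 2 (adjusted p = 0.0518). Nbr1, a receptor that works beside p62, had 0.25 ± 0.12 (adjusted p = 0.165) with groups that did not overlap, and Optn, a receptor for damaged mitochondria and bacteria, had -0.22 ± 0.12 (adjusted p = 0.219). Without wild-type replicate 4 both passed, Nbr1 at 0.27 and Optn at -0.27 (adjusted p = 0.0285 for each).

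Neither of the 2 transcription factor genes passed the test with edgeR, DESeq2 or unweighted limma-voom, 1 (Tfeb) was lower with limma-voom quality weights, and with edgeR 1 of them was lower at an unadjusted p under 0.05. Tfeb stood at 12.1, 9.76, 11.6 and 8.22 CPM in knockout and at 15.2, 12.5, 15.6 and 37.7 CPM in wild type. All knockout libraries were below all wild-type libraries, but wild-type replicate 4 was far above the rest, and the change of -0.83 ± 0.30 did not pass (adjusted p = 0.0747). Without that library Tfeb fell by 0.46 (adjusted p = 0.0327). Tfe3 had -0.21 with a 95% interval of -0.62 to 0.20. RNA levels do not show where these proteins reside, and TFEB and TFE3 are known to be controlled mainly by moving between cytoplasm and nucleus.

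Of the 14 lysosomal genes 7 rose and none fell. The count of falls was 0 at an unadjusted p under 0.05 as well, and 0 with DESeq2 and with limma-voom. The gene with the largest change among all members was Ctsc (ENSMUSG00000030560), cathepsin C or dipeptidyl peptidase 1, which activates the serine proteases of immune cells. It had 60.4, 80.5, 64.4 and 70.6 CPM in knockout and 20.1, 17.5, 17.1 and 28.1 CPM in wild type. The groups were well separated with wild-type replicate 4 the highest of its group, and Ctsc rose by 1.79 ± 0.17 (adjusted p = 5.23e-05), or 3.45-fold.

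The cysteine proteases Ctsl, Ctsz and Ctsh rose by less. Ctsl, a main lysosomal endopeptidase, had 346.8, 418.6, 385.4 and 421.4 CPM in knockout and 299.0, 224.6, 254.1 and 222.7 CPM in wild type. Ctsz, a carboxypeptidase, had 170.2, 181.0, 191.6 and 191.1 CPM in knockout and 139.2, 115.9, 126.8 and 119.8 CPM in wild type. Neither gene had overlapping groups, with log2 fold changes of 0.65 ± 0.15 (adjusted p = 0.00977) and 0.55 ± 0.13 (adjusted p = 0.011), and both kept their calls when any single library was left out. Ctsh, an aminopeptidase, rose by 0.78 ± 0.20 (adjusted p = 0.0187), with wild-type replicate 4 at 111.9 CPM just under the lowest knockout library at 115.3 CPM. Omitting knockout replicates 2 and 4, or wild-type replicates 2 and 3, 1 at a time ended its call (adjusted p 0.0536 to 0.0658).

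The other 3 cathepsin genes among the members did not pass the test. Ctsb ran from 345.0 to 419.6 CPM in knockout and from 330.7 to 442.45 CPM in wild type, overlapping throughout (log2 fold change -0.02, 95% interval -0.33 to 0.29). Ctsd, the main aspartic protease, had 0.15 (95% interval -0.11 to 0.41), a small difference although its knockout libraries (111.5 to 121.25 CPM) all lay above its wild-type libraries (95.03 to 107.1 CPM), and Ctsa, the carboxypeptidase that also protects other hydrolases, had -0.01 (-0.34 to 0.32). For these 3 genes the intervals lie below the estimated log2 fold changes of Ctsc (1.79), Ctsh (0.78), Ctsl (0.65) and Ctsz (0.55). Those estimates have 95% intervals of their own. The intervals of Ctsh (0.34 to 1.21), Ctsl (0.33 to 0.97) and Ctsz (0.27 to 0.82) overlap that of Ctsd. That of Ctsc (1.4 to 2.17) does not. No difference between cathepsin genes was tested, and changes within the intervals of Ctsb, Ctsd and Ctsa are not excluded.

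The membrane protein Lamp1 (ENSMUSG00000031447), which lines the inside of the lysosomal membrane, had 224.4, 346.1, 253.4 and 318.8 CPM in knockout and 205.0, 152.6, 191.3 and 124.8 CPM in wild type. The groups were adjacent and did not overlap, with a rise of 0.76 ± 0.20 (adjusted p = 0.0192) that missed the threshold once knockout replicate 2, knockout replicate 4 or wild-type replicate 2 was left out (adjusted p 0.0674 to 0.0705). Lamp2, which also serves chaperone-mediated autophagy, had 0.35 ± 0.14 (adjusted p = 0.0973), or 0.29 (adjusted p = 0.0192) without wild-type replicate 4. Among the proteins for glycolipid breakdown, the hexosaminidase gene Hexa rose by 0.51 ± 0.16 (adjusted p = 0.0404) and Psap, the precursor of the saposin activators, by 0.69 ± 0.22 (adjusted p = 0.0467). These were the weakest of the calls. Hexa lost its call when any 1 of the 4 knockout libraries, wild-type replicate 1 or wild-type replicate 2 was omitted (adjusted p 0.0622 to 0.118), and Psap without any library other than wild-type replicate 4 (adjusted p 0.0648 to 0.135). Psap was the only called member whose groups overlapped: wild-type replicate 4 had 262.0 CPM, within the knockout range of 235.9 to 312.6, against 122.7 to 153.8 CPM in the other wild-type libraries.

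The proton pump and the calcium channel of the lysosome did not pass. Atp6v0d1 and Atp6v1a, subunits of the V-ATPase that acidifies the lysosome, had 0.43 ± 0.18 (adjusted p = 0.117) and 0.23 ± 0.15 (adjusted p = 0.302). Mcoln1, the calcium channel TRPML1, had -0.24 ± 0.16 (adjusted p = 0.31). Without wild-type replicate 4 Atp6v0d1 passed (0.29, adjusted p = 0.0308) and the other two did not.

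**Figure D3:**
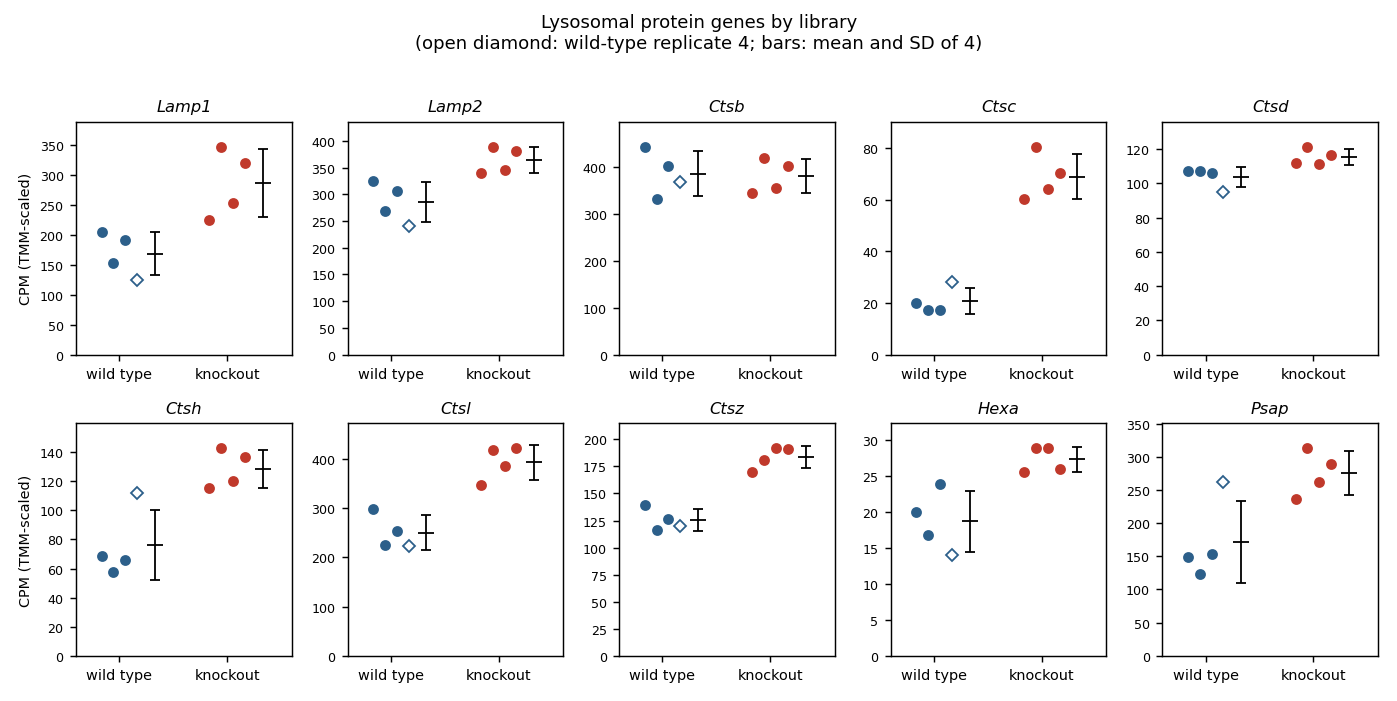
Level of 10 lysosomal genes in each library (vertical axis, TMM-scaled CPM from 0, with a scale of its own in each panel; blue, wild type; red, knockout; open diamond, wild-type replicate 4; black bars, mean and SD of 4 libraries). Ctsc shows the widest gap between genotypes, Ctsb none, and in Ctsh and Psap wild-type replicate 4 sits at or next to the knockout points.

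Lysosomal enzymes are abundant in macrophages, so markers of other liver cells are given beside these results. Of 12 Kupffer cell and macrophage markers 7 were higher in knockout and none lower, and their summed level was 190.2 to 229.1 CPM in knockout, 68.9 to 92.6 CPM in wild-type replicates 1 to 3 and 238.4 CPM in wild-type replicate 4. Among the 7 lysosomal genes that rose, wild-type replicate 4 was the highest wild-type library for Ctsc, Ctsh and Psap, the lowest for Lamp1, Ctsl and Hexa, and in between for Ctsz. Sinusoidal endothelial markers were higher for 7 of 10 with none lower. They summed to 167.3 to 320.4 CPM in knockout, 110.6 to 134.0 in wild-type replicates 1 to 3 and 209.2 in wild-type replicate 4. Of 8 stellate cell markers 3 were lower. Their sum was 166.7 to 195.9 CPM in knockout, 176.0 to 193.25 in wild-type replicates 1 to 3 and 443.1 in wild-type replicate 4. Also lower were 6 of 7 B cell markers (11.7 to 75.1 CPM summed in knockout, 58.5 to 502.7 in wild type). So were 3 of 4 tested T and NK cell markers (5.04 to 7.08 CPM against 8.93 to 18.1). Of 3 tested neutrophil markers 1 was higher, and all the listed ones summed to 10.9 to 14.5 CPM in knockout and 5.76 to 15.2 in wild type, with Mpo and Ly6g at 0 counts in all libraries and Elane at 0 in wild type. Of the 8 hepatocyte markers 1 was higher and 2 were lower, with summed levels of 38085 to 43379 CPM in knockout and 45686 to 59010 CPM in wild type. The part of these cells in the lysosomal results was not tested.

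TFEB and TFE3 bind a motif built around the palindrome CACGTG, so promoters were searched for it (RefSeq promoters, GRCm38.p6, from 250 bases before to 50 after the annotated start; the palindrome reads the same on both strands). Of 34 members with a promoter in the table, 11 held CACGTG, or 32.4%, against 11.8% of 9710 tested genes. With T before and A after it, 6 held it, or 17.6% against 2.21%. TFEB and TFE3 are known to drive many genes of this pathway, so these shares go with the choice of genes. They are not a result of the knockout comparison. Of the 11 members with the core, Lamp1 and Ctsl rose and the other 9 did not pass the test, among 12 members with a promoter in the table that rose. All 6 members with the flanked motif (Ctsa, Ctsd, Mcoln1, Atp6v0d1, Atp6v1a and Atg3) were among those 9. The windows below, 1 per gene, contrast the risers Lamp1 and Ctsl with the lysosomal genes Ctsa, Ctsd, Mcoln1 and Atp6v0d1, which did not pass. Lamp1, Ctsa, Ctsd and Mcoln1 hold further sites that are not shown. Capitals mark CACGTG.
Lamp1 (chr8:13159088-13159117, plus strand): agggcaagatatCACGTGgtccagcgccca
Ctsl (chr13:64370739-64370768, minus strand): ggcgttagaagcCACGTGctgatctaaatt
Ctsa (chr2:164833749-164833778, plus strand): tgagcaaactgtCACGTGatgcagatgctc
Ctsd (chr7:142387908-142387937, minus strand): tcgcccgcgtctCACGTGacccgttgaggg
Mcoln1 (chr8:3500462-3500491, plus strand): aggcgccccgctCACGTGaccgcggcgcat
Atp6v0d1 (chr8:105566050-105566079, minus strand): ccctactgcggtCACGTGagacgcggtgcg
A match describes the letters in this window and does not show binding, and the absence of one says nothing of binding elsewhere.

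The wider pathway, in 6 lists of 138 further genes of which 134 were tested, is given for comparison. In it 14 of the 134 rose and 8 fell, with a median of 0.10. Among all genes tested 10.4% rose and 10.7% fell. The share of the wider lists that rose was thus like that of all genes, and the share that fell was not above it. Counts in the single lists below are small and are not read as a result about the pathway. Legumain (Lgmn), an asparaginyl endopeptidase of the lysosome, had the smallest adjusted p among them, rising from 8.94 ± 1.07 to 26.2 ± 2.61 CPM (SD, n = 4 per group), a log2 fold change of 1.55 ± 0.15 (adjusted p = 5.7e-05). Of 39 tested hydrolases and cofactors 3 rose, with Smpd1, the acid sphingomyelinase, at 0.84 ± 0.15, and 3 fell, with the glycosaminoglycan enzyme Idua at -0.77 ± 0.13 and the ganglioside activator Gm2a at -0.68 ± 0.13.

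Membrane and sorting genes rose in 3 of 20 cases, including Scarb2, the receptor that carries glucocerebrosidase to the lysosome (0.78 ± 0.18), and the cystine exporter Ctns fell (-0.60 ± 0.13). Further V-ATPase subunits gave 3 higher and 1 lower of 14, with the ring subunit Atp6v0c at 0.73 ± 0.18 and Atp6v1h at -0.61 ± 0.12. Of 16 further selective autophagy receptors 2 rose, among them Bnip3, a mitophagy receptor (0.98 ± 0.23, adjusted p = 0.0124), and none fell (0 also at an unadjusted p under 0.05, and 0 with DESeq2 and limma-voom). Of 22 further core autophagy genes Vamp8, a fusion SNARE, rose (0.53 ± 0.16) and Atg16l2 (-1.08 ± 0.20) and the fusion SNARE Stx17 (-0.50 ± 0.16) fell.

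Regulators of mTORC1 and TFEB gave 2 higher and 1 lower of 23: the Ragulator scaffold Lamtor1 (0.72 ± 0.16) and the Rag GTPase Rraga (0.70 ± 0.17) rose, and the mTORC1 inhibitor Akt1s1 fell (-0.54 ± 0.16). Of the 22 genes called in the wider lists, 10 kept their calls without any single library. The other 12, among them Vamp8, Stx17, Atp6v0c, Rraga and Akt1s1 of those given above, lost them without at least 1 of the 7 libraries other than wild-type replicate 4 (adjusted p 0.0504 to 0.145).

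Which members were called depended on wild-type replicate 4, on scaling and on the test used. Without that library 21 members rose and 5 fell, among 17.8% of all genes higher and 17.5% lower, and all 16 calls made with it were shared. The 10 calls gained were Atg101, Atg14, Gabarapl2, Nbr1, Lamp2 and Atp6v0d1, higher, and Atg7, Atg16l1, Optn and Tfeb, lower. In the wider lists it gave 40 higher and 16 lower. With all libraries kept, limma-voom with quality weights gained the same 10 calls. DESeq2 gained Atg101, Lamp2 and Nbr1, and unweighted limma-voom gained Atg101 and Atg14. Scaling by library size alone, with no correction for the mitochondrial share, raised the median of all genes to 0.54 and called 4.25% of genes higher and 0.939% lower. Under it 6 members stayed called, all higher (Atg13, Map1lc3a, Gabarapl1, Ctsc, Ctsh and Psap), and Ulk1 read -0.41 (adjusted p = 0.464) beside that median of 0.54. Of the 22 called genes of the wider lists 20 lost their calls under it, and Lgmn and Scarb2 kept theirs. Of the 4 called ATG8 genes, Map1lc3b (1.46, adjusted p = 0.0832) and Gabarap (1.52, adjusted p = 0.0803) no longer passed under it, although the log2 fold changes of all 4 lay above that median.

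**Figure D4:**
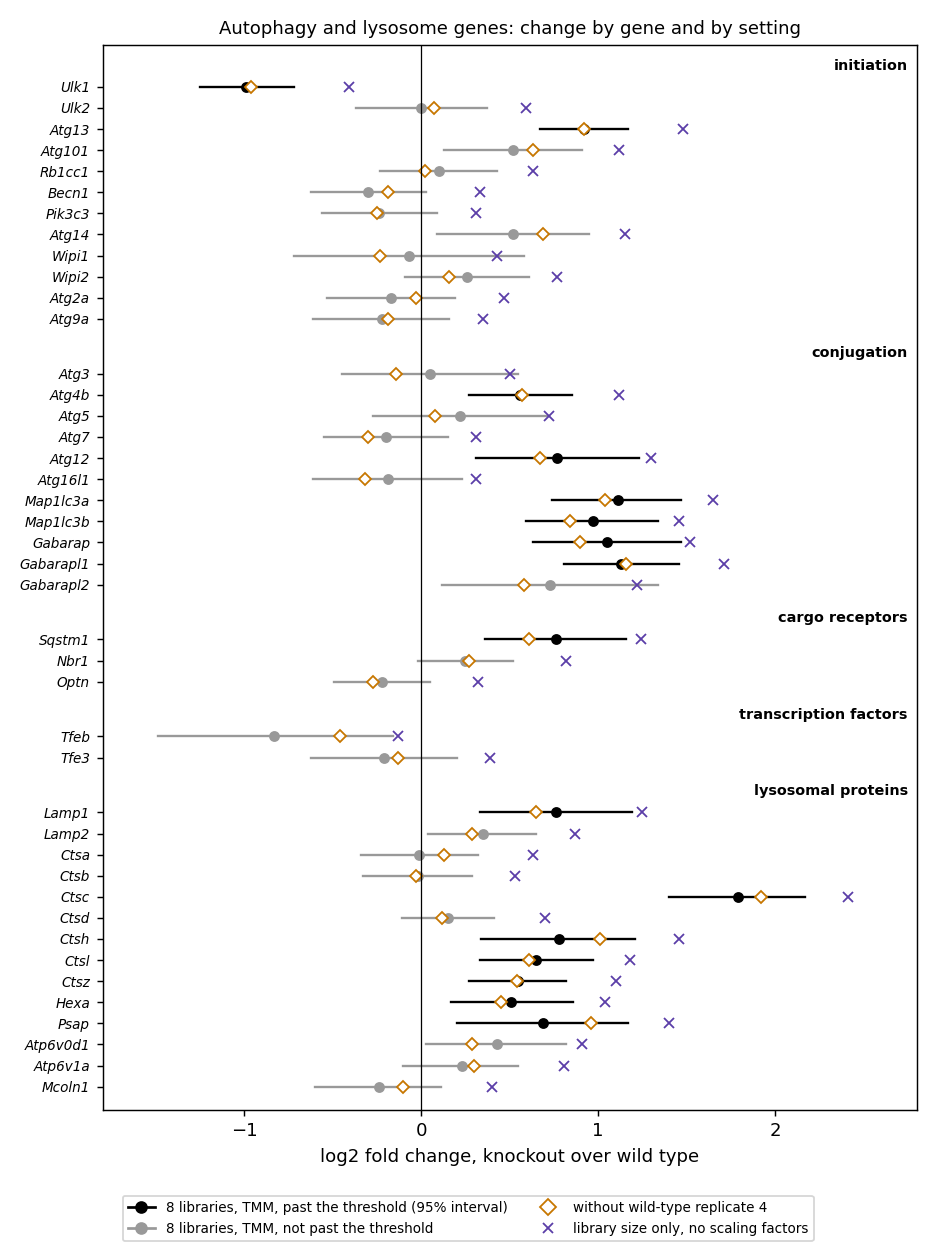
Log2 fold change of knockout over wild type (horizontal axis) for the 42 members, grouped by role. Circles with 95% intervals are the TMM-scaled fit over 8 libraries (black, past the threshold; grey, not), orange diamonds leave out wild-type replicate 4 and purple crosses use library size alone. Ulk1 is the only black circle left of 0, the ATG8 genes and Ctsc lie to the right, and the crosses are shifted to the right for every gene.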

How the data were processed

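The authors deposited raw gene counts, one column per library, with no normalization; the submitters' processing notes name cutadapt 4.2, STAR 2.7.10a and the build mm39. The counting tool, strand setting and treatment of reads matching several genes are not given in the sources used here. Gene symbols came from GENCODE M21 (GRCm38), which named 52073 of 56748 identifiers. Counts were tested in R 4.3.3 with edgeR 4.0.16 (quasi-likelihood fits, robust, TMM factors, filterByExpr on genotype), with two-sided p-values adjusted by Benjamini-Hochberg across the 13204 genes kept and a threshold of 0.05. Members, subgroups and lists were chosen with earlier results of these data known. Named genes were all members and, per wider list, up to 3 called genes in each direction by adjusted p. Not every gene this rule selects is reported here. No covariate was used; same-numbered libraries did not deviate together (correlations -0.19 to -0.03), so replicate numbers were not treated as pairs. The knockout against wild-type test was tried on simulated counts of 13084 genes: it found 59 of 100 genes given a log2 change of 1 and 93 of 100 given 2, and 12 of its 164 calls were false. Each simulated gene had the same spread in all libraries beyond counting error, so a deviating wild-type replicate 4 was not modelled. Only these genes were changed, a far smaller share than the 21.0% called in the data, so the rates may differ there. Alternatives used DESeq2 1.42.0, limma 3.58.1 and other scalings, filters and library sets. Counts of 3 correspond to 0.219 to 1.69 scaled CPM, for counting error only.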

Additional observations from a re-analysis of the deposited data

Results flagged for a closer look

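The rule for a library standing apart flags about 1 in 20 groups of 4 by chance when groups are independent. The groups here are not, because all genes share the same libraries, so that rate is no yardstick for the count. By this rule, 1 library stood apart from the other 3 for 5 of the 84 member groups examined (2 genotypes by 42 genes). In 4 of the 5 it was wild-type replicate 4, which had 16.869 CPM of Atg16l1 (33.0 to 34.9 in the other wild-type libraries), 50.045 CPM of Map1lc3b (81.5 to 87.9), 95.03 CPM of Ctsd (106.0 to 107.1) and 37.674 CPM of Tfeb (12.5 to 15.6). The fifth was Atg3 in knockout replicate 1, at 58.783 CPM against 63.4 to 63.8 in the other knockout libraries.

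Among the summed cell type markers, wild-type replicate 4 stood above the other wild-type libraries for Kupffer cells and macrophages (238.42 CPM against 68.9 to 92.6), stellate cells (443.1 against 176.0 to 193.25) and neutrophils (15.182 against 5.76 to 7.01). Knockout replicate 1 stood below the other knockout libraries for hepatocytes (38085 CPM against 42953 to 43379) and stellate cells (166.66 against 193.4 to 195.9).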

How the results depend on the processing

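Of the 16 called members, 4 (Atg13, Map1lc3a, Gabarapl1 and Ctsc) were called under every alternative run and 9 without any single library. With library size only, 6 members were higher and 0 lower (0 lower also at an unadjusted p under 0.05 with edgeR), 561 and 124 of all genes, and 2 and 0 of the wider lists (0 lower unadjusted). With limma-voom quality weights, 5 members were lower, 2409 and 2541 of all genes were higher and lower, and 38 and 17 of the wider lists. With the replicate block, 8 members were higher, 643 and 624 of all genes were higher and lower, and 4 and 4 of the wider lists. Same-numbered libraries had deviations correlated at -0.19, -0.03, -0.07 and -0.09, so the numbers give no pairing. With counts thinned to equal nuclear depth, 739 and 833 of all genes and 6 and 5 of the wider lists were higher and lower. With a minimum fold of 1.5, 4 members were higher, 317 and 350 of all genes were higher and lower, and 1 and 0 of the wider lists (2 lower unadjusted). With no filter on low counts, 5 genes of the wider lists were lower. Leaving out 1 library gave 9 to 21 members higher and 1 to 5 lower, 760 to 2446 and 728 to 2407 of all genes, and 5 to 40 and 5 to 16 of the wider lists. Requiring the flanked motif left 6 members in place of 11. The cause of these differences was not tested.

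Direction changed only for members that were not called. With library size only, the log2 fold change became 0.33 for Becn1, 0.31 for Pik3c3, 0.43 for Wipi1, 0.47 for Atg2a, 0.35 for Atg9a, 0.31 for Atg7, 0.31 for Atg16l1, 0.32 for Optn, 0.39 for Tfe3, 0.63 for Ctsa, 0.53 for Ctsb and 0.40 for Mcoln1. Ulk2 read -0.01 with quality weights, -0.00 with the replicate block, -0.00 without mitochondrially encoded genes and -0.12 when thinned. Wipi1 read 0.05 with the block and 0.26 when thinned, Atg3 -0.12 with quality weights and Ctsd -0.06 when thinned. Ctsa read 0.06 with no filter, 0.03 with DESeq2, 0.00 with limma-voom, 0.08 with quality weights and 0.00 with the block, and Ctsb 0.04 with no filter and 0.01 with DESeq2. Leaving out 1 library, the ranges were -0.10 to 0.11 for Ulk2, -0.23 to 0.17 for Wipi1, -0.14 to 0.18 for Atg3, -0.06 to 0.13 for Ctsa and -0.08 to 0.06 for Ctsb. Depth limits wild-type replicate 4 most, where 3 counts are 1.69 CPM, against 0.219 to 0.455 CPM in the other libraries.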
